A study of Mus musculus with 6 samples.

Results

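Smooth muscle contractile genes and the myocardin pathway were followed through primary cardiomyocytes that had received phosphate-buffered saline (PBS), BMP2, or BMP2 with dorsomorphin (BMP2+DM). The 10 genes were taken by symbol from a list of smooth muscle contractile and myocardin pathway genes without the actins: Myh11, Tagln, Cnn1, Lmod1, Smtn, Cald1, Mylk, Myocd, Srf and Synpo2. All 10 were present among the 32245 gene symbols of the count tables, and all 10 passed the filter on low counts, which left 14378 genes. The rule itself uses no measured value, but the genes were chosen with earlier results of these data known.

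The cells came from hearts of wild type newborn mice, and each of the 3 groups had 2 polyadenylated-RNA libraries. BMP2 is a secreted growth factor whose receptors activate SMAD transcription factors. Dorsomorphin inhibits BMP receptor kinases and also AMP-activated protein kinase. No group received dorsomorphin alone, the sources used here give neither dose nor duration, and the labels do not say whether libraries of a group came from separate cultures. The p-values therefore measure only the spread between these samples. The smallest library held 10106667 gene counts and the largest 14366042. On 2 ribosomal-repeat models lay 1.31% of the gene counts of PBS 1 and 2.10% of those of BMP2 1, and at most 0.0928% in the other 4 libraries.

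Smooth muscle contracts when myosin light chain kinase phosphorylates the regulatory light chain of myosin, and a set of actin-binding proteins tunes the response. Serum response factor (SRF) binds a short DNA motif called the CArG box near many of these genes, and its coactivator myocardin drives them. The programme is not private to vessels: immature cardiomyocytes and activated fibroblasts are also known to transcribe several of the genes, and myocardin is made in heart muscle as well as smooth muscle. Several members have muscle and non-muscle isoforms, which counts per gene do not separate.

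The promoters are shown first because the members share a known regulator. RefSeq promoter windows (GRCm38.p6, 250 bases before to 50 after a start) were found for 7 of the 10 genes, in 8 windows. None was used for Myh11, Tagln or Myocd. A CArG box, searched on both strands, was present in 1 of the 8 windows, that of Srf, which has boxes beginning 82 and 62 bases before the start. Of all 32851 windows, 1.63% held one, and of 32 windows of a list of SRF cofactors and targets, 5 did. With 1 of the 10 letters allowed to differ, 3 of the 8 windows matched (Srf, Lmod1 and Cald1), against 21.1% of all windows. Each stretch below runs 5′ to 3′ on the gene's strand and stops before the first base of the gene model. The Srf stretch is chr17:46556176-46556412 on the minus strand. Its first and second capital runs are the CArG boxes, and the last capital run is 1 letter off. The Lmod1 stretch is chr1:135324563-135324806 on the plus strand, with 2 boxes 1 letter off in capitals. The Synpo2 stretch is chr3:123236150-123236399 on the minus strand, with a MEF2 box in capitals. That motif was present in 3.19% of all windows and overlaps no CArG match here.
Srf: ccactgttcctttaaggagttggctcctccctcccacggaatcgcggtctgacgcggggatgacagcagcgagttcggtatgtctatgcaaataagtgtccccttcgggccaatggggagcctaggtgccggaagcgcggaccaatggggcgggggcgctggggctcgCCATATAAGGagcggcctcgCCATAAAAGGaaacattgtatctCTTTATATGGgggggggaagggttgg
Lmod1: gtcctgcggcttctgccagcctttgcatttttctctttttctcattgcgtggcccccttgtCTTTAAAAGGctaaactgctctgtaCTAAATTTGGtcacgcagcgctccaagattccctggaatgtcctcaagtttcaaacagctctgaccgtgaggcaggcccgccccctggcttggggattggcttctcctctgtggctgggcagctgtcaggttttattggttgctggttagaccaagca
Synpo2: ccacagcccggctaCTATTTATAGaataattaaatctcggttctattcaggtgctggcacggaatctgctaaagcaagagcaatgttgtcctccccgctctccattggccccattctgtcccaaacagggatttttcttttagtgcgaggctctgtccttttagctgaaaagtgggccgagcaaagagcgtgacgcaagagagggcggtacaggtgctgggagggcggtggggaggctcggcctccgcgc
A match is a description of letters, not a bound site. Lmod1, Synpo2, the 1-letter rule and the MEF2 box were chosen after the values were seen. One further motif, the GC-rich sequence GGCGCC, was present in the window of Smtn alone and in 11.9% of all windows.

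Levels are given as CPM, counts scaled by library size with TMM factors. Sums and shares use this CPM, which is not corrected for gene length. Single genes are ranked by level only per kilobase of exon. On that scale Tagln stood first with PBS, at 361 ± 21.3 CPM per kilobase (SD, n = 2). Cald1 followed at 103 ± 4.32, Smtn at 32.1 ± 0.340, Srf at 28.3 ± 1.28 and Myocd at 12.7 ± 0.656 CPM per kilobase. Below these came Lmod1 at 9.11 ± 0.264, Cnn1 at 8.40 ± 0.859, Synpo2 at 4.64 ± 0.277, Mylk at 3.55 ± 0.707 and Myh11 at 1.08 ± 0.310 CPM per kilobase. Lmod1 and Cnn1 overlapped between libraries and no other neighbours in this order did. Models on the opposite strand cover 62.4% of the exonic bases of Tagln and 16.3% of those of Smtn. Smaller parts of Mylk, 4.87% and 1.99%, also lie under such models. How reads there were assigned is not known. The levels of these genes, the order of Smtn and Srf, and the shares that include Tagln are therefore uncertain. The defining smooth muscle myosin heavy chain gene had the lowest level of the 10, while the actin-binding genes Tagln and Cald1 together made up 80.3% and 80.8% of the summed CPM of the 10 in the PBS libraries. The order changed with treatment. Cnn1 had rank 7 with PBS and rank 9 with BMP2+DM, where its libraries overlapped those of Myh11. Synpo2 had rank 8 with PBS and rank 5 with BMP2, and Srf passed Smtn in both treated groups.

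**Figure D1:**
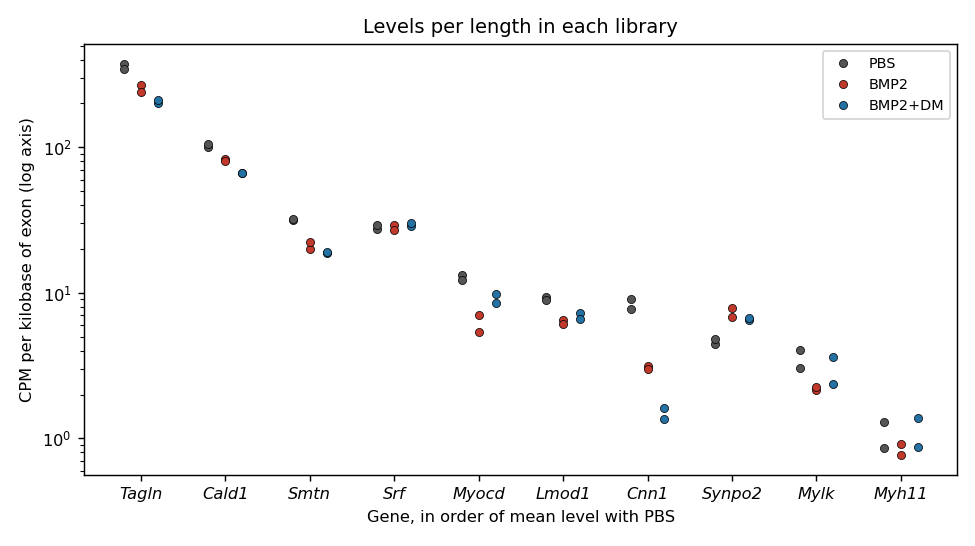
CPM per kilobase of exon on a log axis for each of the 10 genes, in order of the mean level with PBS; each point is 1 of the 6 libraries, coloured by group. Levels run from 361 for Tagln to 1.08 for Myh11 with PBS, and Cnn1 descends through the 3 groups.

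The effect of BMP2 on the 10 genes was read from BMP2 against PBS. Of the 10 genes, 7 fell: Cnn1, Myocd, Mylk, Smtn, Lmod1, Tagln and Cald1. Synpo2 rose, and Myh11 and Srf did not pass the test. Across all genes tested 15.8% were called, 9.29% lower and 6.55% higher. The libraries of the groups did not overlap for 8 of the 10 genes, 7 lower and 1 higher with BMP2, where 55.9% of all genes tested did not overlap, 28% lower and 27.9% higher. The median log2 fold change was −0.52 over the 10 and 0.0044 over all genes tested. In bulk RNA, fewer cells of a type and less RNA per cell cannot be told apart.

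**Figure D2:**
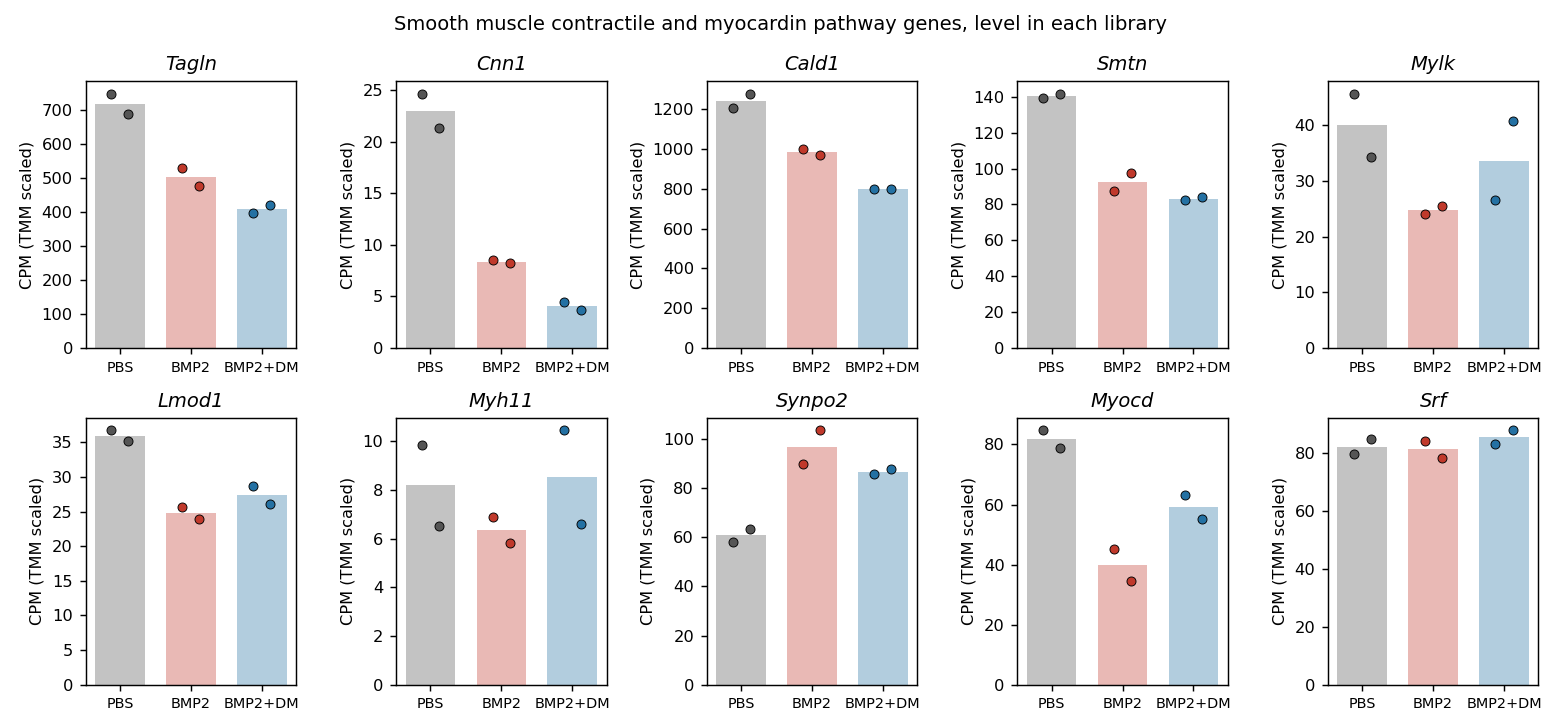
TMM-scaled CPM of each of the 10 genes; points are single libraries, bars the mean of the 2 libraries of a group, and every axis starts at 0. Tagln, Cnn1 and Cald1 step down through PBS, BMP2 and BMP2+DM, Myocd falls and partly recovers, Synpo2 is higher in the 4 treated libraries, and Srf is level.

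The regulators of the programme parted. Myocd encodes myocardin, the SRF coactivator (chromosome 11, 65176561 to 65269989, minus strand, mm10). It was at 84.7 and 78.7 CPM with PBS, 45.2 and 34.7 CPM with BMP2, and 63.2 and 55.0 CPM with BMP2+DM. The 3 groups did not overlap: PBS was highest and BMP2 lowest. With BMP2 the level was 2.04-fold lower than with PBS, a log2 fold change of −1.03 ± 0.12 (standard error; edgeR adjusted p = 7.62e-06). Srf encodes the DNA-binding partner (chromosome 17, 46548329 to 46556175, minus strand). It was at 79.4 and 84.6 CPM with PBS, 84.1 and 78.1 CPM with BMP2, and 83.1 and 87.7 CPM with BMP2+DM. Its groups overlapped in every comparison, and its log2 fold change between BMP2 and PBS was −0.01 ± 0.09 (adjusted p = 0.941). The sign of that small value changed without PBS replicate 2 (0.03) or BMP2 replicate 2 (0.04).

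Among the actin-binding proteins Cnn1 had the greatest fold change. It encodes calponin 1, which binds actin and restrains myosin ATPase in smooth muscle (chromosome 9, 22099216 to 22109630, plus strand). It was counted 345 and 245 times with PBS, 94 and 86 with BMP2, and 46 and 38 with BMP2+DM. In CPM these were 24.6 and 21.3, then 8.54 and 8.20, then 4.45 and 3.69, so that no 2 groups overlapped. The level was 2.74-fold lower with BMP2 than with PBS (log2 −1.46 ± 0.19, adjusted p = 2.75e-05). It kept its call in each of the 14 alternative fits, between −1.55 and −1.35.

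Tagln encodes transgelin (SM22-alpha), an actin-bundling protein that is an early marker of smooth muscle (chromosome 9, 45929619 to 45936058, minus strand). Its level was 747 and 687 CPM with PBS and 529 and 477 CPM with BMP2. The groups did not overlap, and the fall was 0.51 ± 0.06 on the log2 scale (adjusted p = 5.97e-06). An opposite-strand model, Gm48529, covers 62.4% of the exonic bases of Tagln, and it was counted almost as often as Tagln itself, at 90.2% to 102% of the Tagln count per library. It changed by −0.56 ± 0.06. Reads of the pair cannot be told apart here.

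Cald1 encodes caldesmon, which binds actin, myosin and calmodulin (chromosome 6, 34598500 to 34775473, plus strand). It was at 1203 and 1277 CPM with PBS and at 998 and 968 CPM with BMP2, a log2 fold change of −0.33 ± 0.05. This was the smallest fold change of the 7 genes that fell. Smtn encodes smoothelin, an actin-associated protein of contractile smooth muscle (chromosome 11, 3517523 to 3540612, minus strand). It went from 140 and 142 CPM to 87.7 and 97.5 CPM (−0.60 ± 0.08), with 16.3% of its exonic bases under the opposite-strand model Gm11946, which changed by −0.71 ± 0.13. Both genes kept their calls in all 14 alternative fits.

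Lmod1 encodes leiomodin 1, an actin filament nucleator of smooth muscle (chromosome 1, 135324807 to 135368065, plus strand). Its 36.7 and 35.2 CPM with PBS lay above 25.6 and 23.9 CPM with BMP2 (log2 −0.54 ± 0.13, adjusted p = 0.00833). The call was lost without PBS replicate 1 (−0.51), without BMP2 replicate 2 (−0.49), and with PBS 1 and BMP2 1 both left out (−0.56).

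Synpo2 went the other way. It encodes synaptopodin 2, also called myopodin, an actin-bundling protein of the Z-disc and of smooth muscle dense bodies (chromosome 3, 123076519 to 123236149, minus strand). The level was 58.2 and 63.3 CPM with PBS and 89.7 and 103 CPM with BMP2. The groups did not overlap, and the rise was 1.59-fold (log2 0.67 ± 0.09, adjusted p = 6.77e-05). It was called in all 14 alternative fits, at 0.56 to 0.77. Its promoter is among those printed above, and a link between its MEF2 box and the rise was not tested.

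The motor and its kinase come last. Mylk encodes myosin light chain kinase (chromosome 16, 34745210 to 35002420, plus strand). It was at 45.6 and 34.4 CPM with PBS and at 24.1 and 25.5 CPM with BMP2 (log2 −0.70 ± 0.18, adjusted p = 0.0112). The PBS libraries differed by more than those of BMP2 did. The call was lost without PBS replicate 1 (−0.47), BMP2 replicate 1 (−0.65) or BMP2 replicate 2 (−0.74), and with PBS 1 and BMP2 1 both left out (−0.43). The opposite-strand models E130310I04Rik and Gm21691 cover 4.87% and 1.99% of its exonic bases. They were counted at 8.61% to 15.1% and at 15% to 29.8% of the Mylk count per library, so the level of Mylk is uncertain too. Myh11, the smooth muscle myosin heavy chain gene (chromosome 16, 14194535 to 14291372, minus strand), had raw counts of 138 and 75 with PBS, 76 and 61 with BMP2, and 108 and 68 with BMP2+DM. In CPM these were 9.85 and 6.52, 6.90 and 5.82, and 10.4 and 6.60, and all groups overlapped. Its log2 fold change of −0.37 ± 0.28 did not pass (adjusted p = 0.429), and at these counts a change of that size was not detectable.

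**Figure D3:**
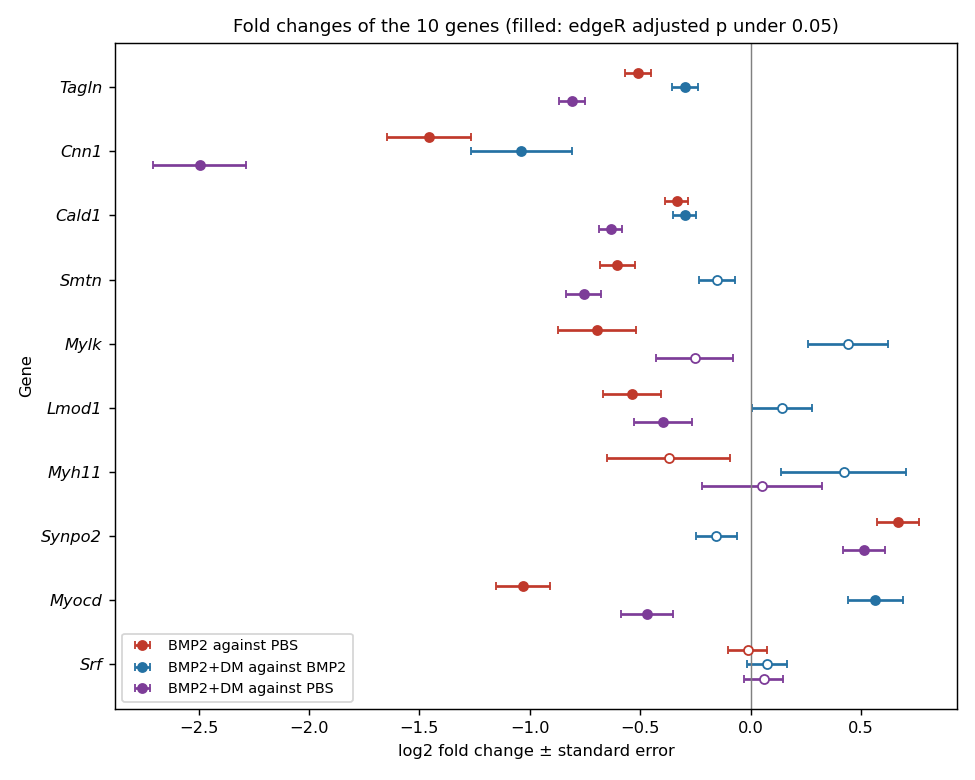
Fitted log2 fold change with its standard error for each of the 10 genes in the 3 comparisons; filled points have an edgeR adjusted p under 0.05 and open points do not. Cnn1 lies farthest to the left, Synpo2 is the called rise against PBS, and Myocd is the called rise when dorsomorphin was added.

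The effect of dorsomorphin in the presence of BMP2 was read next. Without a group on dorsomorphin alone, its actions on BMP receptors and on other kinases cannot be told apart. In BMP2+DM against BMP2, of the 10 genes, 3 fell further (Cnn1, Tagln and Cald1), 1 rose (Myocd) and 6 did not pass. Across all genes tested 8.73% were called, 4.44% lower and 4.28% higher. The groups did not overlap for 8 of the 10 genes, 5 lower and 3 higher, where 50.3% of all genes tested did not overlap, 24.9% lower and 25.4% higher. The median was −0.04 over the 10 and 0.00035 over all genes tested. This comparison shares the BMP2 libraries with the one above, so a high or low BMP2 library moves both.

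Cnn1 was 2.05-fold lower than with BMP2 alone (log2 −1.04 ± 0.23, adjusted p = 0.00678). Tagln reached 398 and 419 CPM (−0.30 ± 0.06, adjusted p = 0.00301) and Cald1 reached 799 and 800 CPM (−0.30 ± 0.05, adjusted p = 0.00119). For each of the 3 genes both BMP2+DM libraries lay below both BMP2 libraries. The Cald1 call was kept in all 14 alternative fits. That of Tagln was lost without BMP2 replicate 1 (−0.22) and that of Cnn1 without BMP2+DM replicate 2 (−0.91), and both were lost with PBS 1 and BMP2 1 left out together (−0.22 and −1.01), where 1 of the 10 genes was still called lower.

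Myocd rose 1.48-fold (log2 0.56 ± 0.12, adjusted p = 0.00708), to a level between the other groups. That call was lost without BMP2 replicate 2 (0.39) or BMP2+DM replicate 1 (0.46). Mylk was at 26.6 and 40.7 CPM with BMP2+DM, the lower library close to the BMP2 libraries. Its log2 fold change of 0.44 ± 0.18 did not pass (adjusted p = 0.156). Without BMP2+DM replicate 1 it was 0.71 and passed, and it also passed with no low-count filter (0.44). Synpo2 stayed at 85.4 and 87.8 CPM (−0.16 ± 0.09, adjusted p = 0.36). Smtn (−0.15 ± 0.08), Lmod1 (0.14 ± 0.14), Srf (0.07 ± 0.09) and Myh11 (0.42 ± 0.28) did not pass either.

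Both agents together were compared with PBS last. Relative to PBS, 6 of these genes were lower with BMP2+DM and 1, Synpo2, was higher. Of all genes tested 20.9% were called, 11.5% lower and 9.38% higher. The groups did not overlap for 7 of the 10, 6 lower and 1 higher, where 58.5% of all genes tested did not overlap, 29.5% lower and 29% higher. The libraries are those of the comparisons above. Cnn1 was 5.64-fold lower (log2 −2.50 ± 0.21), Tagln 1.75-fold lower (−0.81 ± 0.06), Smtn 1.69-fold lower (−0.76 ± 0.08) and Cald1 1.55-fold lower (−0.63 ± 0.05). These 4 calls were kept in all 14 alternative fits, as was the higher level of Synpo2 (0.51 ± 0.10). Myocd was lower by a smaller step (−0.47 ± 0.12, adjusted p = 0.00802). Its call was lost without PBS replicate 1 (−0.41) or BMP2+DM replicate 2 (−0.37) and with PBS 1 and BMP2 1 left out together (−0.41). Lmod1 (−0.40 ± 0.13, adjusted p = 0.0383) was the least firm. Its call was lost in each fit that left out a PBS or BMP2+DM library (−0.47 to −0.33), with PBS 1 and BMP2 1 left out together (−0.37) and with DESeq2 (−0.40). Mylk (−0.25 ± 0.17), Srf (0.06 ± 0.09) and Myh11 (0.05 ± 0.27) did not pass. Mylk was −0.59 and passed without BMP2+DM replicate 2, and was 0.02 without BMP2+DM replicate 1.

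Other genes linked to SRF were lower with BMP2 as well. Of 25 SRF cofactors and targets, 19 fell, 0 rose and 6 did not pass (median log2 fold change −0.37). Of all genes tested 9.29% fell and 6.55% rose. The fall was not particular to this list: of 10 cardiomyocyte markers, 9 fell with BMP2. The list holds 5 myocardin-related or ternary complex factors, named here after their values were seen. None of these was called in BMP2 against PBS. The myocardin-related factors were Mrtfa (0.06 ± 0.13) and Mrtfb (−0.15 ± 0.12). The ternary complex factors were Elk1 (0.09 ± 0.15), Elk3 (−0.05 ± 0.11) and Elk4 (−0.20 ± 0.14). In BMP2+DM against PBS Elk3 alone of them was called, lower (−0.37 ± 0.11). With BMP2 against PBS the LIM-domain genes Fhl1, Pdlim5, Fhl2 and Csrp1 changed by −0.92 ± 0.04, −0.81 ± 0.05, −0.67 ± 0.05 and −0.67 ± 0.05. Fhl1 was at 582 and 579 CPM with PBS and at 313 and 301 CPM with BMP2. With PBS 1 and BMP2 1 left out together 11 of the 25 fell. When dorsomorphin was added, 4 of the 25 rose, among them Nexn, a Z-disc actin-binding gene (0.41 ± 0.05), and Fhl1 (0.31 ± 0.04). Another 3 fell, among them Pdlim7 (−0.57 ± 0.08) and the alpha-actinin gene Actn1 (−0.34 ± 0.05). Of all genes tested 4.28% rose and 4.44% fell in that comparison. With PBS 1 and BMP2 1 left out 2 rose and 2 fell. Without BMP2 replicate 2 or BMP2+DM replicate 2, 2 rose, and 5 fell when the ribosomal-repeat models were left out.

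**Figure D4:**
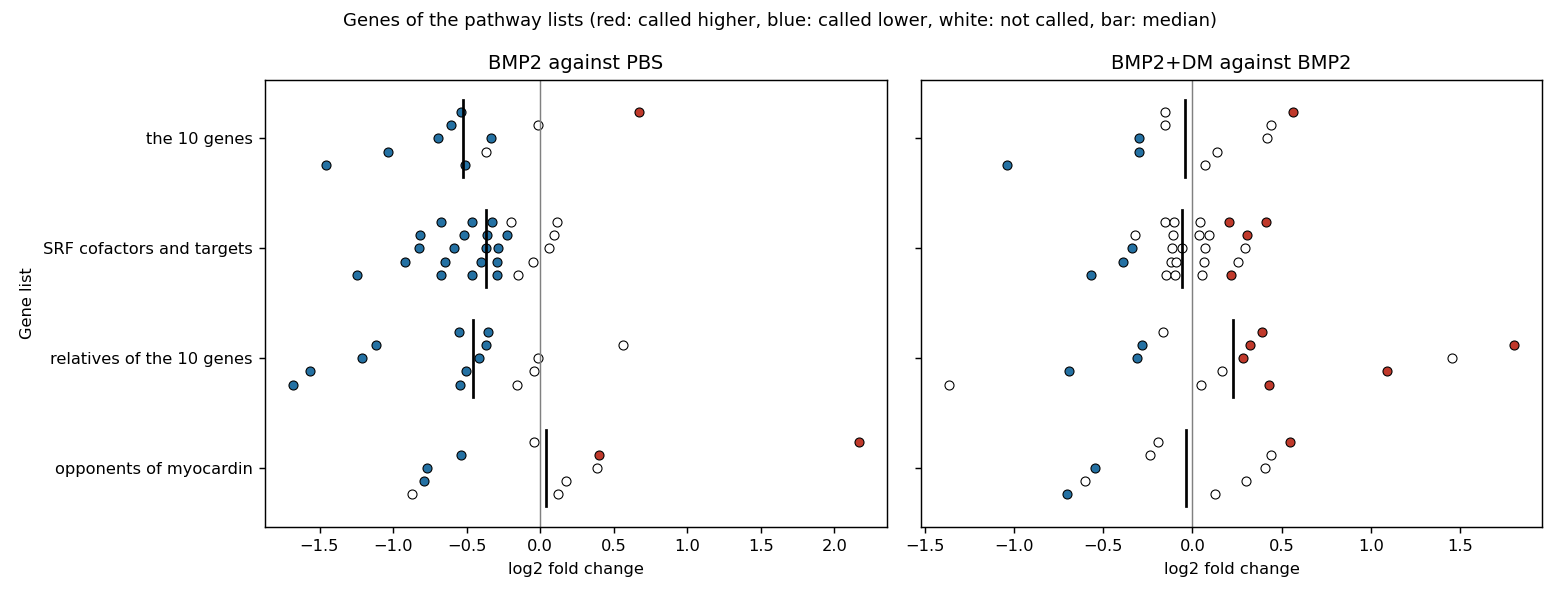
Log2 fold change of each tested gene in the 10-gene set and 3 other lists, for BMP2 against PBS on the left and BMP2+DM against BMP2 on the right; points are genes, coloured by their call, and the bar is the median. On the left 7 of the 10 genes and 19 of 25 SRF cofactors and targets are called lower, and on the right calls lie on both sides of 0.

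Relatives of the 10 genes, which carry out like functions in striated or non-muscle cells, were also lower with BMP2. Of 14 tested, 10 fell and 0 rose (median −0.46), where 9.29% of all genes tested fell and 6.55% rose. Lmod2, the leiomodin of heart muscle, fell by 1.21 ± 0.08 on the log2 scale, Mylk3, the cardiac light chain kinase gene, by 0.54 ± 0.06, and Cnn2, calponin 2, by 0.55 ± 0.05. With dorsomorphin the relatives moved in both directions, 6 up and 3 down, where 4.28% of all genes tested rose and 4.44% fell. Those that rose were Mylk4 (1.80 ± 0.18), Smtnl2 (1.09 ± 0.20), Lmod3 (0.43 ± 0.11), Synpo2l (0.39 ± 0.06), Mylk3 (0.32 ± 0.06) and Lmod2 (0.29 ± 0.08). The others than Mylk4, Synpo2l and Mylk3 are named to complete the count. Those that fell were Tagln2 (−0.69 ± 0.05), the non-muscle myosin gene Myh9 (−0.31 ± 0.05) and Cnn3 (−0.28 ± 0.06). With PBS 1 and BMP2 1 left out, 2 rose and 2 fell. Within families, Tagln and Tagln2 fell in both steps. Lmod2 rose with dorsomorphin while Lmod1 did not pass, a difference that was not tested. With BMP2 Synpo2 rose and its relative Synpo2l fell (−0.50 ± 0.06).

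A list of 10 genes set down as opponents of myocardin or SRF showed no common direction. Whether each of them opposes myocardin in these cells was not tested. Of 10, 3 fell and 2 rose with BMP2 (median 0.04), where 9.29% of all genes tested fell and 6.55% rose. Klf4, a repressor of smooth muscle genes, went from 33.4 and 37.1 CPM to 18.1 and 23.2 CPM (−0.77 ± 0.15), Sox9 changed by −0.79 ± 0.12 and Foxo4 by −0.54 ± 0.14. Hand2, a transcription factor gene of the developing heart whose place in this list is uncertain, rose by 0.40 ± 0.08. The homeobox gene Msx2, a BMP target named here after its values were seen, had raw counts of 8 and 4 with PBS, 30 and 16 with BMP2, and 10 and 38 with BMP2+DM. Its call was at the threshold (log2 2.16 ± 0.72, adjusted p = 0.0497). In each fit without a PBS or BMP2 library 1 of the 10 rose, as with the replicate block and with DESeq2, and with PBS 1 and BMP2 1 left out 0 rose. With dorsomorphin Klf4 rose (0.55 ± 0.15), while Hand2 (−0.55 ± 0.08) and Sox9 (−0.70 ± 0.13) fell. Without either BMP2+DM library, or with DESeq2, 0 of the 10 rose. With PBS 1 and BMP2 1 left out, 0 rose and 1 fell.

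Markers of the cells the culture could hold moved as well. The 6 listed smooth muscle markers outside the 10 genes summed to 2996 to 3001 CPM with PBS, 1823 to 1835 with BMP2 and 2294 to 2311 with BMP2+DM. Most of that was the smooth muscle actin gene Acta2 (2085 CPM in both PBS libraries; −0.84 ± 0.05 with BMP2, 0.18 ± 0.05 with dorsomorphin) and Pln, which heart muscle also expresses (−0.45 ± 0.05 and 0.58 ± 0.05). The 10 genes themselves summed to 2429 to 2430, 1822 to 1900 and 1581 to 1611 CPM. The sum of the 10 was thus lowest with BMP2+DM, which rests on Tagln and Cald1. These 2 genes made up 80.4% and 79.3% of it with BMP2 and 75.7% in both BMP2+DM libraries. Of the 10 genes, 5 had log2 fold changes above 0 in BMP2+DM against BMP2 and 5 below. The sum of the other markers was lowest with BMP2, which rests on Acta2 and Pln. Of the rest, named here after their values were seen, Actg2 (−0.08 ± 0.17), Mustn1 (−0.38 ± 0.33) and Rasl12 (−0.02 ± 0.33) had log2 fold changes below 0 in BMP2+DM against BMP2 that did not pass, and Ntrk3 was not tested.

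The 10 pericyte markers summed to 790 to 801, 612 to 624 and 598 to 632 CPM in the 3 groups. Of 8 tested, 3 fell and 2 rose with BMP2 and 1 fell and 2 rose with dorsomorphin. For these lists, the shares over all genes tested were 9.29% lower and 6.55% higher with BMP2. With dorsomorphin they were 4.44% lower and 4.28% higher. Higd1b had 0 counts with PBS, 0 and 5 with BMP2, and 8 and 5 with BMP2+DM, and was not tested. Vtn had 1 and 0 counts with PBS, 0 with BMP2, and 1 and 0 with BMP2+DM, too few to compare. Fibroblast markers summed to 12830 to 13680, 13830 to 14020 and 12040 to 12550 CPM, with 5 of 10 lower and 3 higher with BMP2 and the same numbers with dorsomorphin. Cardiomyocyte markers summed to 28310 to 28640, 24040 to 24230 and 25480 to 25750 CPM. Of these 10 markers, 9 were lower with BMP2 and 2 higher with dorsomorphin. Epicardial and mesothelial markers summed to 217 to 224, 162 to 165 and 184 to 186 CPM (6 of 10 lower and 1 higher, then 3 higher and 1 lower). Endothelial markers summed to 415 to 425, 370 to 373 and 236 to 250 CPM (1 lower and 1 higher of 10, then 5 lower). Leukocyte markers summed to 93.1 to 93.2, 69.6 to 69.6 and 62.9 to 64.5 CPM (1 of 5 tested lower in each step). Cd3e had 1 and 0 counts with PBS and 0 in both treated groups, too few to compare. The part of these shifts in the results for the 10 genes was not tested.

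**Figure D5:**
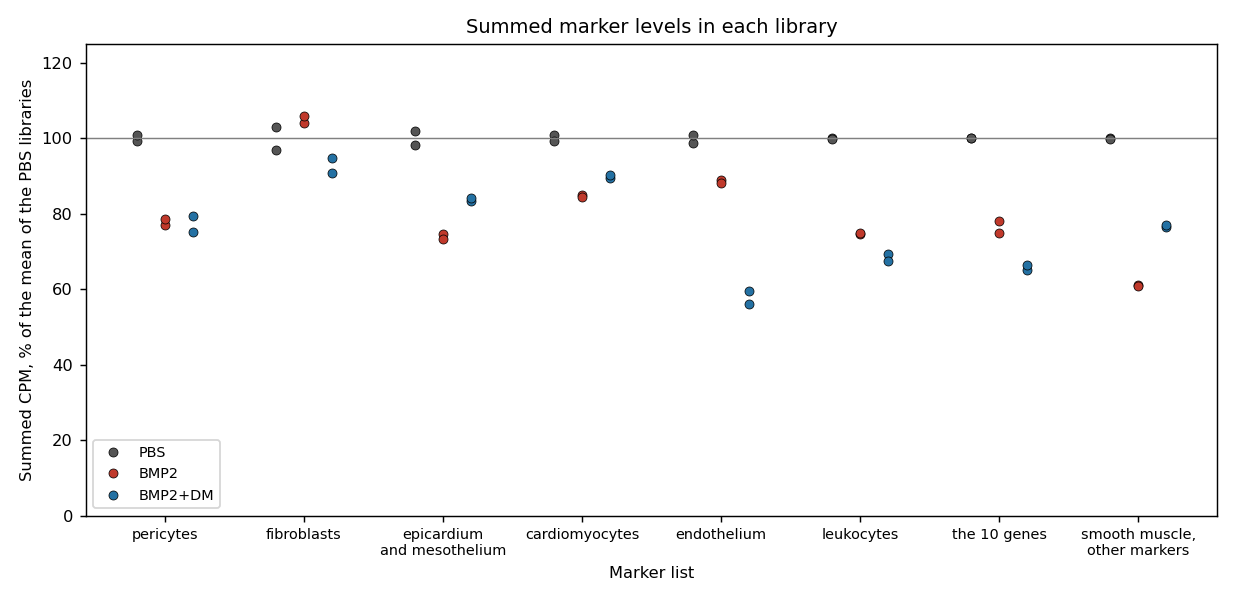
Summed CPM of each marker list in each of the 6 libraries, as a percentage of the mean of the PBS libraries, on an axis from 0. The sum of the 10 genes, most of it Tagln and Cald1, is lowest with BMP2+DM. That of the other smooth muscle markers, most of it Acta2 and Pln, is lowest with BMP2. Fibroblast markers stay within 90.8% to 106%.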

How the data were processed

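The authors deposited raw read counts per gene symbol, 1 table per library; HTSeq, STAR, DESeq2, Trimmomatic and FastQC are named, with mm10, in the submitters' processing notes. The sources used here give no annotation or strand setting, and the labels' protocol names no strand-marking step. Each table ends with 5 lines that name no gene. They held 53.8% to 54.2% of its total (49.7% to 50.1% without a feature) and were left out. Genes passing filterByExpr (minimum count 10, minimum total 15) were fitted in edgeR 4.0.16 (R 4.3.3) with TMM factors, group means of all 6 libraries and 3 residual degrees of freedom. Comparisons used its quasi-likelihood F test, with Benjamini-Hochberg adjustment over 14378 genes and a threshold of 0.05; the standard error is the absolute log2 fold change over the square root of F. The fit was tested on simulated data in which all genes shared a common spread. That test cannot show how the fit handles spread that differs between genes. Alternatives included DESeq2 1.42.0, other filters and scaling, a replicate block and left-out libraries. Libraries of a group differed by more than sampling noise (chi-square per degree of freedom 3.82 to 17.0). These values include the ribosomal-repeat models, whose share differed between the libraries of PBS (1.31% and 0.0702%) and of BMP2 (2.10% and 0.0928%). They were not computed without those models, so the groups cannot be ranked by spread from them. Positions and exon lengths are from GENCODE vM21 (mm10), which held 97.5% of the symbols and all 10 members; promoters are from RefSeq. Named genes are the 10 members, up to 4 per pathway list with the smallest p and at most 2 per cell type list, plus those said to be chosen later. The result of 1 further pathway list is not reported here. The members and lists were chosen with earlier results of these data known. Per-library precision is limited by counting error as well: 3 counts correspond to 0.214 to 0.291 CPM.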

Additional observations from a re-analysis of the deposited data

How the results depend on the processing

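Over 3 comparisons, 10 genes and 14 alternative fits, 390 of 420 fold changes kept their direction and side of the threshold, 22 lost their call, 3 gained one and 5 changed sign. The sign changes came in leave-one-out fits of values that were not called: Srf in BMP2 against PBS ran from −0.0687 to 0.0361, and in BMP2+DM against PBS Myh11 ran from −0.32 to 0.38 and Mylk from −0.5914 to 0.0161. With PBS 1 and BMP2 1 left out together, 171 genes rose and 403 fell in BMP2 against PBS, 137 and 176 in BMP2+DM against BMP2, and 533 and 855 in BMP2+DM against PBS. The spread there comes from the BMP2+DM pair, and the lone PBS and BMP2 libraries are assumed to vary like it. Of the 10 genes, 1 was then lower in BMP2+DM against BMP2. In that comparison 2 of the 10 were higher with no low-count filter, and 0 to 1 in leave-one-out fits. Leaving out 1 library gave 475 to 1028 rises and 843 to 1442 falls for BMP2 against PBS, 314 to 528 and 356 to 553 for BMP2+DM against BMP2, and 742 to 1298 and 1085 to 1630 for BMP2+DM against PBS. Of the 10 genes, 5 to 7, 2 to 3 and 4 to 6 were then lower. The cause of these shifts was not tested; such fits have fewer samples. The labels give the groups the same replicate numbers and do not say what a number marks. Differences between replicates correlated by −0.0376 to 0.0248 across genes between groups. With a replicate block 932 genes rose and 1329 fell for BMP2 against PBS, 601 and 625 for BMP2+DM against BMP2, and 1327 and 1633 for BMP2+DM against PBS, and the counts for the 10 genes were unchanged at 7, 3 and 6 lower and 1 higher in each.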

Other observations

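The counts assigned to Tagln and to the antisense model that overlaps it were close to equal in every library. How reads were divided between the pair is not known. Gm48529, the model annotated antisense to Tagln, had raw counts of 10002 and 8068 with PBS, 5582 and 4729 with BMP2, and 3712 and 4080 with BMP2+DM, where Tagln had 10462 and 7899, 5828 and 5000, and 4117 and 4321. Its log2 fold changes were −0.56 ± 0.06 for BMP2 against PBS and −0.34 ± 0.06 for BMP2+DM against BMP2, beside −0.51 ± 0.06 and −0.30 ± 0.06 for Tagln. Gm11946, opposite to Smtn, was counted at 28.1% to 34.2% of Smtn. The protein-coding neighbour Pcsk7, which overlaps 5.43% of the exonic bases of Tagln, did not pass in either comparison (0.24 ± 0.14 and −0.32 ± 0.14).

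The share of each gene in the summed CPM of the 10 also shifted. Srf made up 3.27% and 3.48% with PBS, 4.43% and 4.29% with BMP2, and 5.25% and 5.44% with BMP2+DM. Its own CPM was not called changed in any comparison, while the sum of the 10 was lower in both treated groups. Synpo2 went from 2.40% and 2.61% to 4.72% and 5.67%, and Cnn1 from 1.01% and 0.877% to 0.450% in both BMP2 libraries and to 0.281% and 0.229% with BMP2+DM. Cald1 stayed between 49.5% and 53.1% in all 6 libraries.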
